A study of Mus musculus with 15 samples.

Results

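Mitochondrially encoded transcripts were followed in RNA sequencing of mouse quadriceps, and were taken as every row of the table whose gene symbol was on a list of 10. These are 10 of 14272 named rows and 10 of the 16 mitochondrially encoded rows in the table. The list holds 9 protein-coding transcripts (mt-Nd1, mt-Nd2, mt-Nd4, mt-Nd5, mt-Cytb, mt-Co1, mt-Co2, mt-Co3 and mt-Atp6) and 1 ribosomal RNA, mt-Rnr2. All 10 passed the filter on low values. The main readings are that each weekly value of mt-Rnr2 lay below each vehicle value, and that its ratio to the summed protein-coding members, mostly mt-Co1, was lower in both prednisone groups. Against single members it was not lower without overlap for 6 of 9 in weekly and 5 of 9 in daily libraries. With all libraries, the main limma fit called no member in any comparison, where 3.89% to 8.73% of all genes were called. With edgeR, DESeq2 and limma sample weights 0 to 3 of 10 were called, against 5.31% to 40.5% of all genes. The count of 3 came with sample weights in weekly against vehicle, at 40.5%. With the library weekly 4 left out, daily against weekly gave 4 of 10 with scaling on a trimmed mean of ratios (TMM), against 13.5% of all genes. Scaling outside mitochondrial and residual ribosomal rows gave 5 of 10 there, against 10.6%.

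All mice were male DBA/2J-mdx, which lack dystrophin and model Duchenne muscular dystrophy on the DBA/2J background, and there was no group without the mdx mutation. The 5 vehicle libraries came from mice given intraperitoneal DMSO, the solvent, 7 times a week. The 5 weekly libraries came from mice given the glucocorticoid drug prednisone once weekly (1 time a week, 1 mg/kg), with vehicle on the other 6 occasions, and the 5 daily libraries from mice given the same dose 7 times a week. Age was 6 months in the protocol text and about 7 months in the sample descriptions, and the length of treatment was not given in the sources used here. Nothing in the labels ties each library to its own mouse. The p-values therefore measure only how far these samples spread, which may be technical.

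Mitochondrial DNA is a small circular genome that encodes core subunits of the respiratory chain, the ribosomal RNAs of the mitochondrial ribosome and a set of transfer RNAs. Both strands are transcribed as long precursors that are cut at the transfer RNAs. All other proteins of the organelle, most respiratory subunits among them, are encoded in the nucleus and imported, and skeletal muscle is rich in mitochondria. In bulk tissue, fewer cells of a type and less RNA per cell cannot be told apart.

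In the GENCODE annotation of GRCm38, mt-Rnr2, the RNA of the large mitochondrial ribosomal subunit, lies at chrM:1094-2675 on the plus strand, followed by mt-Nd1 at chrM:2751-3707. The other members, all on the plus strand, are mt-Nd2 (chrM:3914-4951), mt-Co1 (chrM:5328-6872), mt-Co2 (chrM:7013-7696), mt-Atp6 (chrM:7927-8607), mt-Co3 (chrM:8607-9390), mt-Nd4 (chrM:10167-11544), mt-Nd5 (chrM:11742-13565) and mt-Cytb (chrM:14145-15288). The Nd genes encode subunits of complex I, the NADH dehydrogenase. mt-Cytb encodes cytochrome b of complex III, the Co genes encode the catalytic core of complex IV, cytochrome c oxidase, and mt-Atp6 encodes a subunit of the ATP synthase. The annotated end of mt-Nd5 overlaps that of mt-Nd6 on the other strand (chrM:13552-14070), and strand use in the counting was not given in the sources used here.

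Annotated nuclear transcripts that copy mitochondrial DNA differ between the members, and the following stretches of 60 bases show where a copy starts and stops. Capitals mark bases within the copy on chromosome 1, which is exact or nearly so, and lower case marks bases outside it. Gm28661, a pseudogene on chromosome 1, repeats mt-Co2 over 681 bases with 0 mismatches, and its first 60 bases are printed under those of mt-Co2. The stretch of mt-Co1 shows where the copy Gm29216 begins, and that of mt-Nd4 where the copy Gm28439 ends. mt-Nd1 and mt-Rnr2, shown by their starts, had no match of at least 90% identity over 100 bases.
mt-Co2 (chrM:7013-7072, plus strand): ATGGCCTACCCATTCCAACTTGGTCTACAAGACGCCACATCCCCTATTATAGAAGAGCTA
Gm28661 (chr1:24615506-24615565, minus strand): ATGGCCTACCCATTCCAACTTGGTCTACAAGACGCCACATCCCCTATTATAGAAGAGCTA
mt-Co1 (chrM:6360-6419, plus strand): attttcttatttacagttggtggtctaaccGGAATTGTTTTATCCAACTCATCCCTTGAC
mt-Nd4 (chrM:11013-11072, plus strand): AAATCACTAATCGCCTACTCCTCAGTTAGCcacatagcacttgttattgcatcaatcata
mt-Nd1 (chrM:2751-2810, plus strand): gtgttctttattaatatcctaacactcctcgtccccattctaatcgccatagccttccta
mt-Rnr2 (chrM:1094-1153, plus strand): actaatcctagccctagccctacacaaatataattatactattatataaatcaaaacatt

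The copies lay next to each other on chromosome 1. Gm10925 repeated 678 of the 681 bases of mt-Atp6 and Gm28437 repeated 783 of the 784 bases of mt-Co3, both without a mismatch. Gm28439 covered bases 1 to 876 of mt-Nd4, and Gm29216 covered bases 1063 to 1545 of mt-Co1 with the single substitution A1066T, counted from the first base of mt-Co1. More distant copies also existed: Gm13340 on chromosome 2 matched all 1545 bases of mt-Co1 at 97.6% identity and held 0 to 1.44 CPM in the table, and copies of part of mt-Nd2 and mt-Nd5 and nearly all of mt-Cytb matched at 92.4% to 96.7%. Of all windows of 150 bases, the read length, 99.4% in mt-Co2, 99.4% in mt-Atp6, 99.8% in mt-Co3, 59.2% in mt-Nd4 and 23.6% in mt-Co1 had an exact copy in an annotated nuclear transcript. The share was 0% for mt-Nd1, mt-Nd2, mt-Nd5, mt-Cytb and mt-Rnr2. Only annotated transcripts were searched, and all sequences are from GENCODE M21 transcripts.

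In vehicle libraries mt-Rnr2 averaged 81918 ± 1904 CPM per kb, where CPM is the read count scaled to the library total (SD, n = 5, as for the next values). mt-Co1 followed at 9909 ± 283 CPM per kb, and mt-Nd1 at 3736 ± 82.5. mt-Cytb stood at 2335 ± 40.9, mt-Nd2 at 1482 ± 48, mt-Nd4 at 1178 ± 24.2 and mt-Nd5 at 908 ± 28.7 CPM per kb. From mt-Rnr2 to mt-Nd5, no neighbours in this order overlapped in their vehicle ranges.

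The 3 members with a copy in nearly every window were far lower, at 23.7 ± 3.54 CPM per kb for mt-Atp6, 11.9 ± 1.34 for mt-Co3 and 4.08 ± 0.793 for mt-Co2. mt-Atp8, which overlaps the start of mt-Atp6, stood at 1254 ± 71.2 CPM per kb, with 0% of its 55 windows copied in annotated transcripts. Between the copies of mt-Co2 and mt-Atp6 on chromosome 1, sequence outside annotated transcripts was not searched. A copy of mt-Atp8 there would have been missed. mt-Nd3 (97% of windows) and mt-Nd4l (98%) stood at 37.4 ± 12.7 and 4.98 ± 1.29. How reads with more than 1 placement were counted was not given in the sources used here, and its part in these low levels was not tested. Values of mt-Co2, mt-Co3 and mt-Atp6 are therefore uncertain as levels, and those of mt-Nd4 and mt-Co1 may miss reads from the copied stretch.

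**Figure D1:**
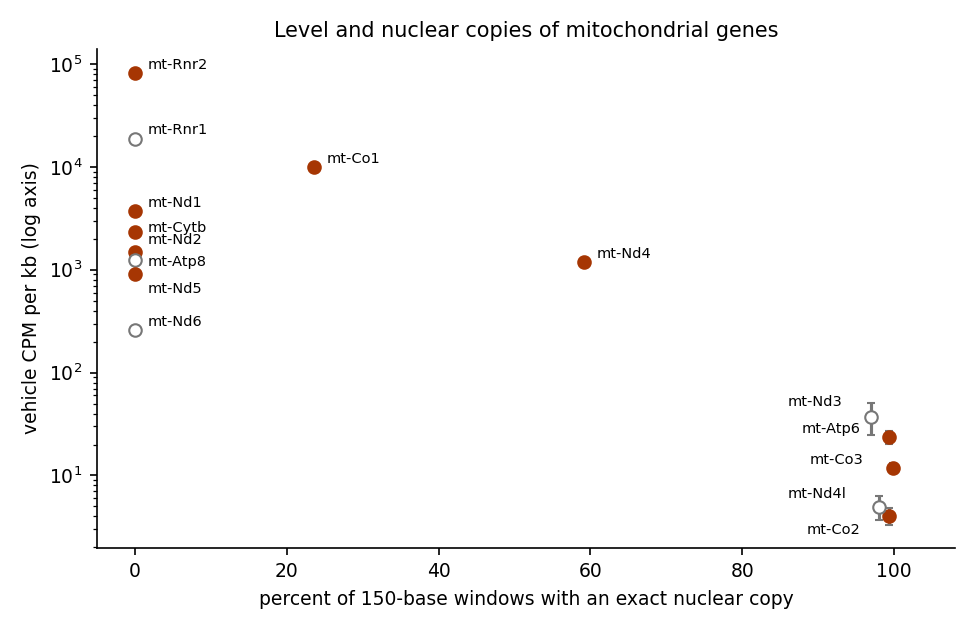
Mean level in the 5 vehicle libraries (CPM per kb, log axis, bars show SD) against the percent of 150-base windows with an exact copy in an annotated nuclear transcript. Filled points are the members and open points other mitochondrially encoded rows; the 5 genes with 97% or more of their windows copied stand at or below 37.4 CPM per kb.

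Libraries held 2780768 to 11052552 recovered reads, and a level of 3 reads, the floor used here, was 0.271 to 1.08 CPM. The libraries carried muscle RNA: all 10 skeletal muscle markers were present, and their summed CPM ranged over 73489 to 75564 in vehicle, 56371 to 93995 in weekly and 44539.7 to 68827 in daily libraries. Pairs of vehicle libraries lay close to sampling noise, with a chi-square per degree of freedom over genes of 1.51 to 2.05, against 20 to 95.2 for weekly and 4.93 to 231 for daily pairs. Each was counted as a sample.

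Weekly 4 and daily 3 stood apart. Weekly 4 was the shallowest library. All mitochondrially encoded rows together took 0.776% of its reads, while the remaining weekly libraries ranged from 9.8% to 14.2% and the vehicle libraries from 17.1% to 18%. Daily 3 had 20.5% of its reads in Gm26924 and 7.79% in Lars2, rows treated here as residual ribosomal RNA, against at most 3.02% and 1.61% in the other daily libraries.

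In weekly 4 the low values spanned the members but were uneven. mt-Nd2 stood at 2.53%, mt-Nd1 at 2.76%, mt-Nd4 at 3.01% and mt-Cytb at 3.35% of their vehicle means, and mt-Rnr2 at 4.38%. mt-Co1 stood at 7.42% and mt-Nd5, with 689 reads, at 15%. mt-Co3 had 0 reads, which allows up to 1.08 CPM, mt-Atp6 had 1 read and mt-Co2 had 3.

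Transcripts of the nuclear-encoded respiratory chain were not low in weekly 4. The 36 measured nuclear subunits of complex I summed to 3685 CPM in weekly 4, within the 3177 to 4235 CPM of the other weekly libraries, and those of complexes III, IV and V to 8334 CPM, within 7109 to 9681 CPM. Fibroblast markers (6 of 6 detected) summed to 18839.8 CPM in weekly 4, while the remaining weekly libraries held 1639 to 2493 CPM and vehicle libraries 1484 to 1681 CPM. Macrophage markers (7 of 7 detected) summed to 1506 CPM there, while the remaining weekly libraries held 169 to 439 CPM and vehicle libraries 389 to 427 CPM. Their part in the low mitochondrial values was not tested.

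Weekly prednisone was compared with vehicle first, beginning with the ribosomal member. mt-Rnr2 took 12.8%, 13.4%, 12.9%, 13.1% and 12.6% of the reads in vehicle libraries 1 to 5. It took 8.46%, 6.22%, 6.24%, 0.567% and 9.41% in weekly libraries 1 to 5. The groups did not overlap, with or without weekly 4. Of all 14059 genes tested, 1.66% were lower in every weekly than in every vehicle library, and 3.17% without weekly 4.

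As a mean, mt-Rnr2 was 129594 ± 3012 CPM in vehicle and 61801 ± 34341 CPM in weekly libraries (SD, n = 5 each), and 75833 ± 16116 CPM in weekly without weekly 4 (n = 4). On the log2(CPM + 0.5) scale the difference was -1.54 (SE 0.56), which did not pass limma with Benjamini-Hochberg (BH) adjustment over all genes (adjusted p = 0.0926). Without weekly 4 it was -0.80 (SE 0.29, limma adjusted p = 0.0676, BH). An exact two-sided permutation test of this transcript alone, chosen after its values were seen, gave the smallest p that the design allows, 0.00794 with all libraries (n = 5 each) and 0.0159 without weekly 4 (n = 4 against 5). Groups that do not overlap fix that p, so it adds nothing to the values above. The median gene stood 0.17 higher in weekly than in vehicle libraries, so that mt-Rnr2 stood at -1.71 relative to it.

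mt-Rnr1, the RNA of the small mitochondrial ribosomal subunit (chrM:70-1024), is outside the 10 members. It measured 16924, 18376, 18519, 17780.0 and 18265 CPM in vehicle and 16806, 7659.7, 7432, 382 and 12369 CPM in weekly libraries 1 to 5, without overlap. It fell by 0.78 without weekly 4 (SE 0.22, limma adjusted p = 0.0143, BH) and did not pass with weekly 4 (-1.74, SE 0.63, adjusted p = 0.0882). mt-Tp, the proline transfer RNA on the other strand (chrM:15356-15422), fell by 1.17 (SE 0.30, limma adjusted p = 0.0175, BH) and by 0.83 without weekly 4 (SE 0.20, adjusted p = 0.0025). Its level was low, with a weekly range of 2.88 to 16.1 CPM and a vehicle range of 17.4 to 20.6 CPM.

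**Figure D2:**
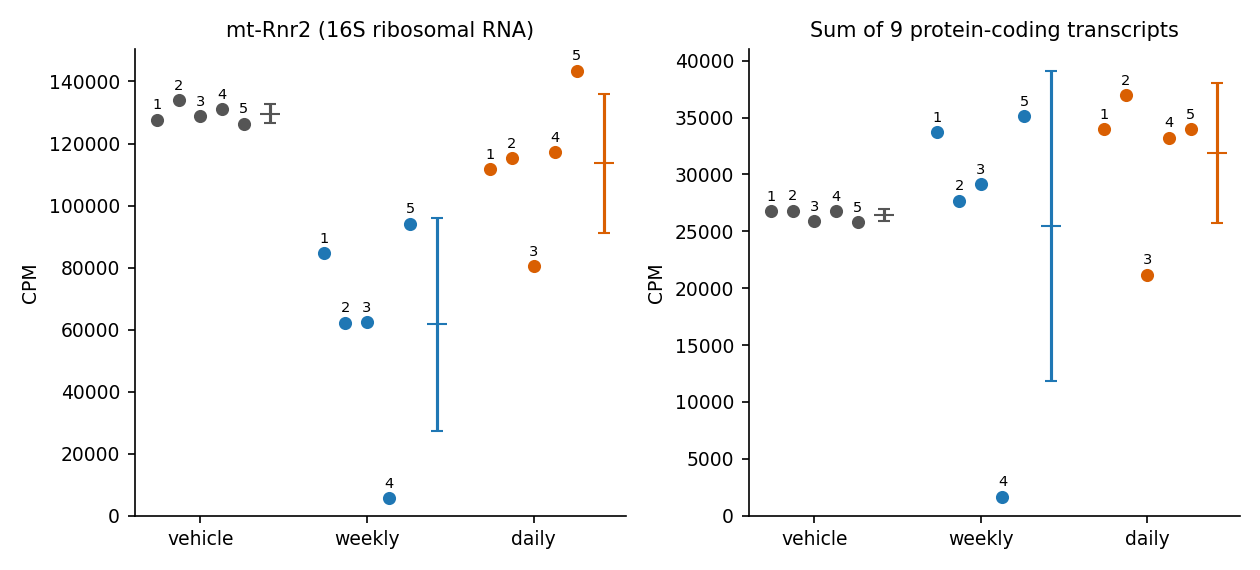
CPM of mt-Rnr2 (left) and summed CPM of the 9 protein-coding members (right) in each library, numbered by replicate; bars show mean ± SD (n = 5). Every weekly library lies below every vehicle library for mt-Rnr2, while 4 of 5 weekly libraries lie above every vehicle library for the sum.

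The protein-coding members read otherwise. Their summed level was 26748, 26823, 25886, 26779 and 25775 CPM in vehicle and 33695, 27703, 29158, 1660.3 and 35129 CPM in weekly libraries 1 to 5. Thus 4 weekly libraries stood above every vehicle library and weekly 4 far below. Without mt-Co1 the other 8 summed to 10897 to 11378 CPM in vehicle and to 12501, 10751, 9885, 525 and 12124 CPM in weekly libraries 1 to 5, so that only weekly 1 and weekly 5 stood above vehicle. No member, mt-Rnr2 included, was called in weekly against vehicle by limma (0 of 10), while 8.06% of all genes were called, and 1 of 10 members had an unadjusted p under 0.05. Without weekly 4 the count was again 0 of 10 against 11.2% of all genes, and 2 of 10 had an unadjusted p under 0.05. Other settings called 0 of 10 members with edgeR (11.3% of all genes), 1 with DESeq2 (13.5%), 3 with limma sample weights (40.5%), 1 with scaling outside mitochondrial and residual ribosomal rows without weekly 4 (15.1%) and 2 without weekly 4 and daily 3 (24.0%).

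The direction of the protein-coding members rested on weekly 4. With it, 8 of 9 log2 differences were negative with a median of -0.87, and without it 4 of 9 were negative with a median of 0.07, against a median gene at 0.17 and 0.15. The median of the 9 relative to the median gene was -1.05 with weekly 4 and -0.08 without.

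mt-Co1 was the member with the most reads among the protein-coding transcripts. It measured 15370.4, 15568, 14863, 15867 and 14878 CPM in vehicle and 21193, 16952, 19273, 1135 and 23005 CPM in weekly libraries 1 to 5. Without weekly 4 the weekly values were all above vehicle, by 0.38 on the log2 scale (SE 0.22, limma adjusted p = 0.27, BH). With TMM scaling, which sets libraries level on a trimmed mean of ratios, this was 0.23 (adjusted p = 0.411).

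mt-Co2, at 2.18 to 3.41 CPM in vehicle and 3.74, 3.89, 5.03, 1.08 and 5.42 CPM in weekly libraries 1 to 5, was the other member above vehicle without overlap once weekly 4 was left out (0.61, SE 0.22, limma adjusted p = 0.0625, BH). In that comparison 16.1% of all genes were higher in weekly without overlap, against 2 of 10 members. The complex I members overlapped vehicle. mt-Nd1 measured 3503 to 3698 CPM in vehicle and 3805, 3666, 3378, 98.5 and 4190.0 CPM in weekly libraries 1 to 5. mt-Nd2 and mt-Nd5 differed by -0.04 (SE 0.15) and -0.09 (SE 0.15), and mt-Cytb by 0.08 (SE 0.16), without weekly 4.

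**Figure D3:**
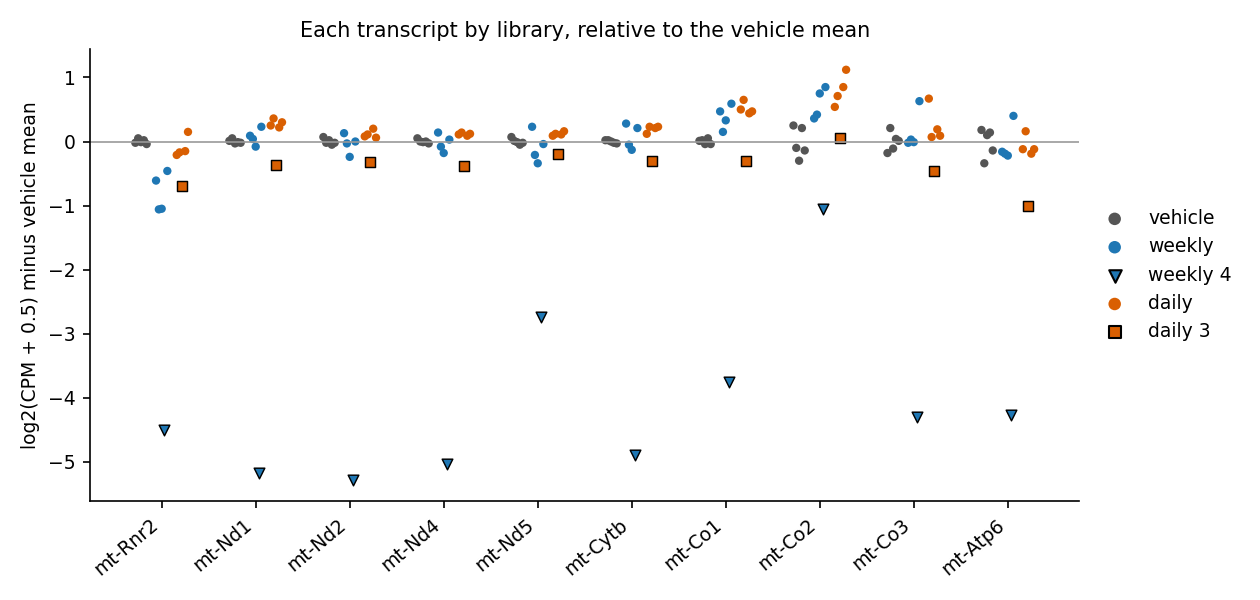
Difference of log2(CPM + 0.5) in each library from that of the vehicle mean, for each member; circles are libraries, the triangle is weekly 4 and the square daily 3. Weekly 4 lies lowest for all 10 members, and the other weekly libraries lie below the vehicle mean for mt-Rnr2 and above it for mt-Co1 and mt-Co2.

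The ribosomal and protein-coding members were then set against each other within each library, which removes the scaling between libraries. The ratio of mt-Rnr2 to the sum of the 9 was 4.77, 5, 4.98, 4.89 and 4.9 in vehicle libraries 1 to 5. It was 2.51, 2.24, 2.14, 3.42 and 2.68 in weekly libraries and 3.29, 3.12, 3.8, 3.52 and 4.23 in daily libraries 1 to 5. Neither prednisone group overlapped vehicle. Daily lay above weekly without overlap only when weekly 4, the highest weekly value, was left out.

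Group means were 4.91 ± 0.0884 in vehicle, 2.6 ± 0.505 in weekly and 3.59 ± 0.438 in daily libraries (SD, n = 5 each), and 2.39 ± 0.247 in weekly without weekly 4 (n = 4). No p is given, since the ratio is a score over members chosen with results known. On the log2 scale the ratio was 0.94 lower in weekly (listed as -0.94) and 0.46 lower in daily than in vehicle libraries (-0.46). With each of the 9 counted equally, as a mean of log2 values, these were -0.83 and -0.35.

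The ratio was also taken to the sum of the 8 members other than mt-Co1. This was 11.2 to 12 in vehicle, 5.78 to 7.76 in 4 weekly libraries, 10.8 in weekly 4 and 8.86 to 11.2 in daily libraries, where daily 5 overlapped vehicle. The log2 difference from vehicle was then -0.68 in weekly and -0.30 in daily libraries. Single partners were taken next. mt-Rnr2 over mt-Co1 was 8.26 to 8.67 in vehicle, 3.24 to 5 in weekly and 4.81 to 6.77 in daily libraries. Over mt-Nd1, with no copy found among annotated nuclear transcripts, it was 35.4 to 36.9 in vehicle and 17 to 22.5 in 4 weekly libraries. In daily libraries this ratio was 25.2 to 32.7, but in weekly 4 it was 57.6. Over mt-Cytb it was 47 to 49.7 in vehicle, 24.1 to 30.5 in 4 weekly libraries, 63.3 in weekly 4 and 36.9 to 45.7 in daily libraries. Without weekly 4, mt-Rnr2 was lower in weekly than in vehicle libraries relative to each of the 9 members taken singly, without overlap. With it, this held for mt-Nd5, mt-Co1 and mt-Co2, and not for the other 6 of 9, counting mt-Co3, which had 0 reads in weekly 4. Daily libraries were below vehicle without overlap for mt-Nd1, mt-Cytb, mt-Co1 and mt-Co2, and overlapped for mt-Nd2, mt-Nd4, mt-Nd5, mt-Co3 and mt-Atp6. Over mt-Atp6 the daily mean was the higher one, at 8467 ± 1614 against 8215 ± 1477 in vehicle (SD, n = 5 each). Ratios of mt-Rnr2 to nuclear genes were not taken, so these counts have no share over all genes beside them. In weekly libraries mt-Rnr2 alone already lay below vehicle without overlap, so the counts do not show a contrast particular to these members.

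**Figure D4:**
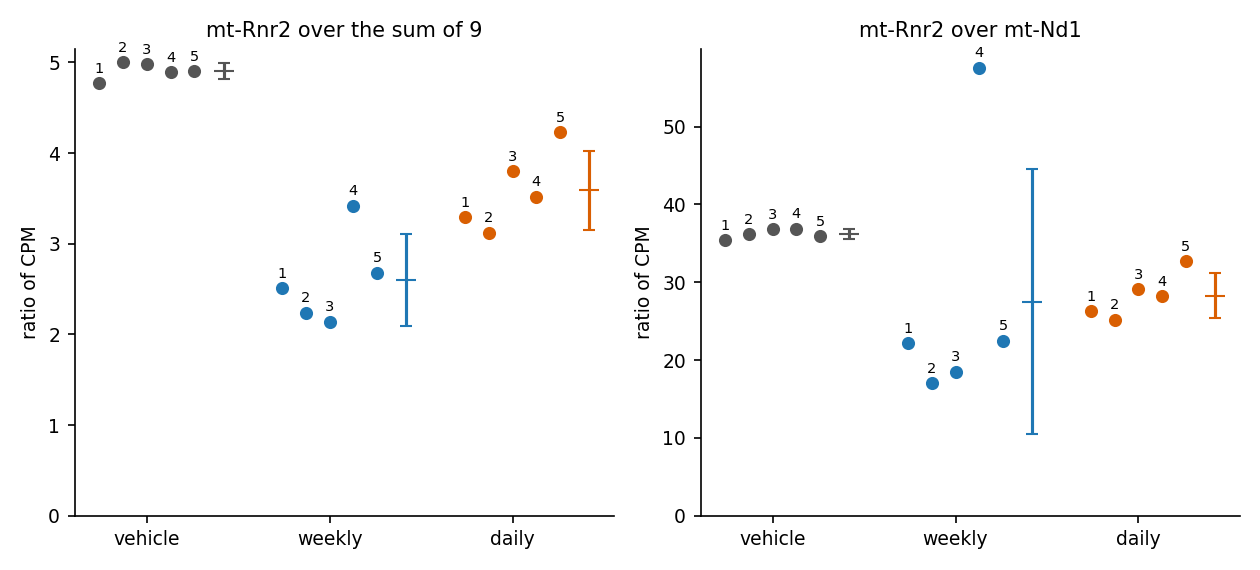
Ratio of mt-Rnr2 CPM to the summed CPM of the 9 protein-coding members (left) and to mt-Nd1 (right) in each library, numbered by replicate; bars show mean ± SD (n = 5). Vehicle libraries lie at 4.77 to 5 on the left, above every weekly and daily library, and weekly 4 is the highest library on the right at 57.6.

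With all libraries, the ratio of the 2 ribosomal RNAs varied more within each group than mt-Rnr2 over the sum of the 9. Coefficients of variation were 3.75%, 36.6% and 35.1% in vehicle, weekly and daily libraries against 1.8%, 19.4% and 12.2%. Without daily 3 the order in the daily group reversed, at 6.9% against 13.8% (n = 4). mt-Rnr1 over mt-Rnr2 was 0.133 to 0.145 in vehicle libraries. It was 0.199, 0.123, 0.119, 0.0674 and 0.131 in weekly and 0.133, 0.127, 0.264, 0.141 and 0.149 in daily libraries 1 to 5. The highest value was in daily 3 and the lowest in weekly 4, and the groups overlapped. Total RNA kits are commonly run with a step that depletes ribosomal RNA. Whether one was used, and whether it reached mitochondrial ribosomal RNA, was not given in the sources used here, and its part in the mt-Rnr2 ratio was not tested. Gm26924 took 0.128% to 0.194% of reads in vehicle, 0.043% to 0.553% in weekly and 0.14% to 20.5% in daily libraries.

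The make-up of the protein-coding RNA also differed in weekly libraries. mt-Co1 made up 57.5%, 58, 57.4, 59.3 and 57.7% of the sum of the 9 in vehicle and 62.9%, 61.2, 66.1, 68.4 and 65.5% in weekly libraries 1 to 5. The groups did not overlap. The shares of mt-Nd1, mt-Nd2, mt-Nd4 and mt-Cytb were lower in every weekly than in every vehicle library: mt-Nd4 held 6.04% to 6.27% in vehicle and 2.95% to 5.53% in weekly libraries, and mt-Cytb 9.84% to 10.3% against 5.39% to 9.65%.

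mt-Nd5 joined them only without weekly 4, at 5.96% to 6.49% in vehicle and 4.48% to 5.76% in weekly libraries. In weekly 4 its share was 14.9%. Shares in 1 sum are tied to each other, so a higher share of mt-Co1 lowers the rest. Summing only the 6 members outside mt-Co2, mt-Co3 and mt-Atp6 gave the same pattern, with mt-Co1 at 57.5% to 59.3% in vehicle and 61.3% to 68.4% in weekly libraries.

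**Figure D5:**
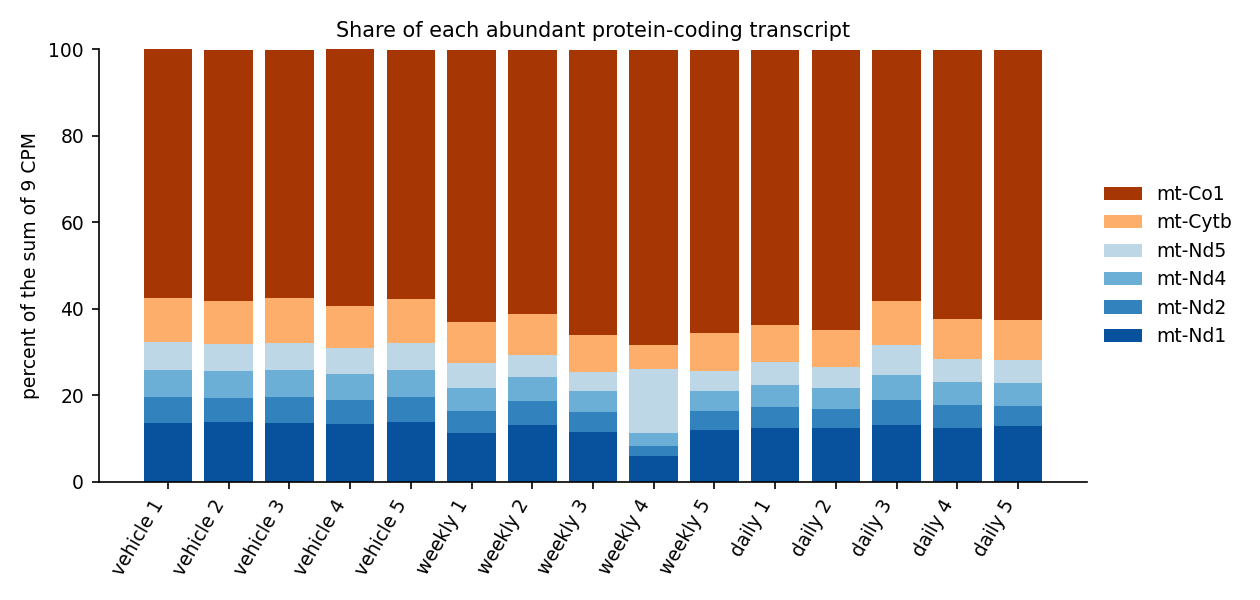
Percent of the summed CPM of the 9 protein-coding members held by each of the 6 abundant ones, by library; the other 3 together are too small to see. mt-Co1 holds 57.4% to 59.3% in vehicle and 61.2% to 68.4% in weekly libraries, and weekly 4 has the widest band of mt-Nd5 at 14.9%.

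Daily prednisone was compared with the same 5 vehicle libraries, which the comparisons share. mt-Rnr2 took 11.2%, 11.5%, 8.05%, 11.7% and 14.4% of reads in daily libraries 1 to 5, so 4 of 5 lay below and daily 5 above the vehicle range. The difference was -0.21 (SE 0.56, limma adjusted p = 0.892, BH), and the exact two-sided permutation test gave p = 0.111 (n = 5 each). mt-Rnr1 overlapped vehicle as well (-0.04, SE 0.63, adjusted p = 0.985).

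The protein-coding members summed to 33993, 36961, 21183, 33244 and 33961 CPM in daily libraries 1 to 5. All but daily 3 lay above the vehicle range of 25775 to 26823 CPM. Daily 3 held 589188 CPM outside mitochondrial and residual ribosomal rows, against 812186 to 820889 CPM in vehicle libraries, so its CPM are low on this scale. No member was called with all libraries (0 of 10, against 3.89% of all genes, and 1 of 10 at an unadjusted p under 0.05). The median log2 difference of the 9 was 0.10, which is 0.17 relative to the median gene, and 1 of 9 was negative. Other settings called 1 of 10 members with edgeR (9.48% of all genes), 1 with DESeq2 (11.4%), 2 with limma sample weights (25.1%) and 1 with TMM scaling without weekly 4 (21.5%).

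mt-Co2 was the 1 member called when weekly 4, which enters the shared estimate of spread, was left out. It measured 4.29, 4.89, 2.94, 5.44 and 6.65 CPM in daily libraries 1 to 5, against 3.41, 2.58, 2.18, 3.32 and 2.49 CPM in vehicle libraries. Only daily 3 fell within the vehicle range. It was higher by 0.67 (SE 0.29, limma adjusted p = 0.242, BH) with all libraries and rose by 0.67 (SE 0.21, adjusted p = 0.0264) without weekly 4, where 10.6% of all genes were called. Because 99.4% of its windows have an exact nuclear copy and it holds at most 6.65 CPM, this row cannot be told apart from its copies.

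Leaving out both weekly 4 and daily 3 moved more of the members past the threshold. mt-Co1 rose by 0.51 (SE 0.15, limma adjusted p = 0.0208, BH) and mt-Nd1 by 0.28 (SE 0.09, adjusted p = 0.0459), beside mt-Co2 at 0.82 (SE 0.18, adjusted p = 0.00278), so 3 of 10 were called against 17.4% of all genes. mt-Co1 measured 21667, 23966, 12311, 20709 and 21194 CPM in daily libraries 1 to 5, all but daily 3 above the vehicle maximum of 15867 CPM. mt-Nd1 measured 4243, 4579.9, 2762, 4154 and 4389.9 CPM, again with daily 3 alone below vehicle. These CPM are not adjusted for the residual ribosomal reads of daily 3. Its low values of mt-Co1 and mt-Nd1 therefore cannot be read as low levels of these transcripts.

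Scaling to the reads outside mitochondrial and residual ribosomal rows, with daily 3 kept and weekly 4 left out, gave the same 3 calls. There mt-Co1 was 0.47 (adjusted p = 0.0132), mt-Nd1 0.27 (adjusted p = 0.0368) and mt-Co2 0.79 (adjusted p = 0.00384) above vehicle (limma, BH; 17.4% of all genes called). Within the sum of the 9, the shares of mt-Nd1 (12.4% to 13% in daily, 13.3% to 13.8% in vehicle) and mt-Nd4 (4.86% to 5.91%, 6.04% to 6.27%) were lower in daily libraries without overlap. The share of mt-Co1, at 58.1% to 64.8% in daily libraries, overlapped vehicle through daily 3.

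Daily and weekly libraries were also compared directly, so that these differences share samples with both comparisons above. mt-Rnr2 was 1.33 higher in daily than in weekly libraries (SE 0.56, limma adjusted p = 0.127, BH), and 0.58 higher without weekly 4 (SE 0.29, adjusted p = 0.166). The exact two-sided permutation test gave p = 0.0238 (n = 5 each) and p = 0.0476 without weekly 4 (n = 5 against 4). In CPM the groups overlapped, since daily 3 at 80469 CPM lay below weekly 1 at 84625 and weekly 5 at 94133 CPM. Rows outside mitochondrial and residual ribosomal ones summed to 589188 CPM in daily 3, 855677 CPM in weekly 1 and 847770 CPM in weekly 5. Set against these sums, mt-Rnr2 in daily 3 lay above both weekly 1 and weekly 5, so the overlap holds for CPM only. mt-Rnr1 rose by 0.74 from weekly to daily without weekly 4 (SE 0.22, limma adjusted p = 0.0203, BH).

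No member was called between daily and weekly with all libraries (0 of 10, against 8.73% of all genes, and 1 of 10 at an unadjusted p under 0.05), nor without weekly 4 (0 of 10 against 13.5%, and 0 of 10 at an unadjusted p under 0.05). Other settings called 0 of 10 with edgeR (5.31% of all genes), 0 with DESeq2 (7.45%), 2 with limma sample weights (24.5%) and 5 with scaling outside mitochondrial and residual ribosomal rows without weekly 4 (10.6%). The median of the 9 was 0.84 with weekly 4 and 0.04 without it, and the median gene stood at -0.24 and -0.22. With TMM scaling and without weekly 4, mt-Nd1 (0.32), mt-Nd2 (0.30), mt-Nd4 (0.28) and mt-Nd5 (0.39) were called higher in daily libraries, with limma adjusted p between 0.0303 and 0.0492 (BH). That is 4 of 10 members, where 6.47% of all genes were called higher. mt-Cytb was 0.26 (adjusted p = 0.128) and mt-Co1 0.20 (adjusted p = 0.513) higher there.

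Nuclear genes of the same complexes were set beside the members, from lists chosen with results known. In weekly against vehicle, 7 of 36 nuclear complex I subunits and 7 of 36 of complexes III, IV and V rose, none fell, and 6.99% of all genes rose. Without weekly 4 these counts were 12 and 12 of 36, where 9.39% of all genes rose. Ndufv1, a catalytic complex I subunit, rose by 0.76 (SE 0.18, limma adjusted p = 0.00994, BH), with 137 ± 1.98 CPM in vehicle and 240.0 ± 72 CPM in weekly libraries (SD, n = 5 each). Cox4i1, a complex IV subunit, rose by 0.71 (SE 0.17, adjusted p = 0.0118), and Cox8a, another one, by 1.09 (SE 0.25, adjusted p = 0.00764).

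Of the genes of the organelle's matrix and membranes, 7 of 24 rose and none fell. Hspd1, the matrix chaperonin, rose by 0.65 (SE 0.14, limma adjusted p = 0.00656, BH). Proteins of the mitochondrial ribosome, the partners of mt-Rnr2, had 2 of 75 rising and none falling, with Mrpl34 at 0.81 (SE 0.20, adjusted p = 0.0123). Their median was 0.27, 0.10 above that of all genes, while mt-Rnr2 stood at -1.71 relative to the median of all genes. Without weekly 4, 9 of 75 rose, where 9.39% of all genes rose. Their median was then 0.15 above that of all genes, and mt-Rnr2 stood at -0.94 relative to the latter.

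In daily against vehicle, 0 of 36, 0 of 36, 0 of 24 and 0 of 75 genes of these 4 lists passed limma with all libraries, where 3.89% of all genes did. Without weekly 4, 4 of 36 and 4 of 36 respiratory subunits fell, where 6.40% of all genes fell, and with TMM scaling as well 8 of 36 and 15 of 36 fell, against 9.80%. From weekly to daily, 23 of 36 complex I subunits, 20 of 36 of complexes III, IV and V, 16 of 24 matrix and membrane genes and 20 of 75 ribosomal proteins fell, where 8.24% of all genes fell. Without weekly 4 these were 34, 35, 19 and 36, against 12.3%. With TMM scaling and without weekly 4, where 4 members were called higher, 25 and 29 of the respiratory subunits fell, where 7.01% of all genes fell. With TMM scaling and all libraries, 8 and 5 fell, against 2.65%.

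The machinery that copies, transcribes and processes mitochondrial DNA was described by its lists, beside the 6.99% of all genes that rose in weekly against vehicle. There, 1 of 13 replication and maintenance genes rose (Peo1, the helicase of mitochondrial DNA, by 0.63, SE 0.17, limma adjusted p = 0.0276, BH). None of 8 transcription genes passed: Polrmt, the mitochondrial RNA polymerase, was 0.26 (SE 0.18, adjusted p = 0.386) and Tfam, the packaging and initiation factor, -0.03 (SE 0.14, adjusted p = 0.913). Of 21 genes for RNA processing and stability, 2 rose, Fastkd3 (0.73, SE 0.19, adjusted p = 0.0175) and Trmt10c, part of the enzyme that cuts the 5′ ends of transfer RNAs (0.50, SE 0.15, adjusted p = 0.0461).

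Of 17 genes for ribosomal RNA modification and ribosome assembly, 1 rose: Rnmtl1, a methyltransferase of the large mitochondrial ribosomal RNA (0.84, SE 0.19, limma adjusted p = 0.0075, BH), with 4.7 ± 0.442 CPM in vehicle and 8.9 ± 1.59 CPM in weekly libraries (SD, n = 5 each). Of 19 regulators of mitochondrial biogenesis, Ppara (1.04, SE 0.26, adjusted p = 0.0172) and Pprc1 (0.73, SE 0.19, adjusted p = 0.0215) rose in weekly libraries. In daily libraries Ppargc1b, a coactivator of respiratory genes, fell by 0.86 (SE 0.18, adjusted p = 0.0078). The other lists of this machinery had 0 calls among 13, 8, 21 and 17 genes in daily against vehicle, where 3.89% of all genes were called.

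Markers of other cell types moved with the groups as well. Adipocyte markers (7 of 7 detected) summed to 429 to 464 CPM in vehicle, 609 to 2262 CPM in 4 weekly libraries, 467 CPM in weekly 4 and 135 to 307 CPM in daily libraries. In weekly against vehicle 4 of 7 rose (6.99% of all genes), 7 of 7 without weekly 4 (9.39%) and 2 of 7 with TMM scaling and all libraries (5.73%). In daily against vehicle 3 of 7 fell, where 2.13% of all genes fell. Brown adipocyte markers (3 of 4 detected) summed to 53.8 to 63.1 CPM in vehicle, 82.9 to 399.6 CPM in 4 weekly libraries and 36.7 CPM in weekly 4. Among them Ucp1 measured 0.113 to 0.73 CPM in vehicle, 9.77 to 223 CPM in 4 weekly libraries and 1.44 CPM in weekly 4. The other detected markers thus made up most of the vehicle sum.

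Slow muscle markers (5 of 5 detected) summed to 674 to 768 CPM in vehicle, 47.8 to 977 CPM in 4 weekly libraries, 1167 CPM in weekly 4 and 63.4 to 378 CPM in daily libraries, and 4 of 5 fell in daily against vehicle. Their part in the mitochondrial values was not tested.

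Genes outside the mitochondrial genome with the pattern most like the members were sought among 7821 genes with a mean of at least 10 CPM, by Pearson correlation of log2(CPM + 0.5) over libraries that share depth and scaling. For the mean of the 9 over 15 libraries, these were Cdc73, Ube2b, Eny2, Cnep1r1 and Pias2 (0.94 to 0.95). Without weekly 4, over 14 libraries, they were Pank2, 2310003H01Rik, Luc7l2, Hnrnpul2 and Xpo6 (0.93 to 0.95), so none was named both times. For mt-Rnr2 they were AI838599, A330023F24Rik, Pde7a, Klhl38 and Ccnk over 15 libraries (0.93 to 0.96) and Gm22009, Ddx26b, Fibin, Slc8b1 and Rnu3a over 14 (0.82 to 0.92). Among mitochondrial rows, mt-Rnr2 had a value of 0.94 with the mean of the 9 over 15 libraries and 0.26 over 14.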

How the data were processed

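RNA from about 30 mg of quadriceps, about 1 µg per library, entered a stranded total RNA kit and was sequenced as pairs of 150 bp reads, per the labels' protocols. Per the submitters' processing notes, TopHat2 2.1.0, mm10 (GRCm38), HTSeq and edgeR were used by the authors. The labels call the unit of the deposited table RPKM, but the values are CPM: 222090 of 222090 deposited CPM values were whole multiples of 1 read within 0.01 reads, with 1 step per library for genes of any length. Of 14806 rows, 534 had no gene name (0.276% to 0.447% of a library) and were left out, and 7 symbols stood on 2 rows. The table had 9 empty columns and 0 columns without a matching sample.

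The test was limma 3.58.1 (R 4.3.3) on log2(CPM + 0.5), using a mean-variance trend in the empirical Bayes step, with all 15 libraries fitted together. A minimum of 1 CPM in 5 or more libraries kept 14059 genes and removed 213, and an adjusted p under 0.05 (BH) made a call. Fold changes on this scale understate changes of low genes. Count tests used recovered reads (edgeR 4.0.16, DESeq2 1.42.0). Nuclear copies were found with blastn 2.17.0 in GENCODE M21 transcripts (at least 90% identity over 100 bases). Depth floors cover counting error only.

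The members, lists and tests were chosen with earlier results of these data known. Named were all members, all other mitochondrial rows, residual ribosomal rows, the 5 genes most like the members, and, from each list, genes among the 3 with the smallest p in each prednisone group against vehicle. Alternatives covered scaling, pseudocount, filter, weights, tools, replicate block and left-out libraries. Leaving out weekly 4 and daily 3 together, scaling outside mitochondrial rows or edgeR without weekly 4, averaging the vehicle libraries, the sum without mt-Co1, and the exact permutation test were added after seeing the data.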

Additional observations from a re-analysis of the deposited data

Results flagged for a closer look

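Within each group of 5 libraries, a value was singled out when its gap to the nearest other library exceeded 0.71 of the group's range. Of 72 groups tested, 15 gave such a value. Chance gives about 1 in 20 for a single group. The groups come from the same libraries and are tied to each other, so the count cannot be set against that rate. Of the 15 values, 7 were in weekly 4 and 8 in daily 3.

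In weekly 4, the lowest of the weekly libraries, mt-Nd1 measured 98.5 CPM, mt-Nd2 38.8 CPM, mt-Nd4 48.9 CPM, mt-Cytb 89.5 CPM and mt-Co1 1135 CPM. In the same library mt-Nd1 held 5.93% of the sum of the 9 protein-coding members, the lowest weekly share, and mt-Nd5 held 14.9%, the highest.

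In daily 3, the lowest of the daily libraries, mt-Nd1 measured 2762 CPM, mt-Nd4 1251 CPM, mt-Nd5 1455 CPM, mt-Cytb 2154 CPM, mt-Co1 12311 CPM and mt-Atp8, a row outside the 10 members, 196 CPM. mt-Nd5 held 6.87% of the sum there, and the ratio of mt-Rnr1 to mt-Rnr2 was 0.264, both the highest daily values. The CPM values of daily 3 are not adjusted for its residual ribosomal reads. Its rows outside mitochondrial and residual ribosomal ones summed to 589188 CPM, against 747944 to 823446 CPM in the other daily libraries.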

How the results depend on the processing

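The log2 difference of mt-Rnr2 kept its direction in every alternative run. In weekly against vehicle it passed the threshold with limma sample weights (-0.99, adjusted p = 0.00203), DESeq2 (-1.23, adjusted p = 0.0229), scaling outside mitochondrial and residual ribosomal rows without weekly 4 (-0.89, adjusted p = 0.00626), no weekly 4 and no daily 3 (-0.80, adjusted p = 0.0401) and edgeR without weekly 4 (-0.92, adjusted p = 0.0027). In daily against weekly it passed with sample weights (0.86, adjusted p = 0.0278), that scaling without weekly 4 (0.79, adjusted p = 0.0188) and edgeR without weekly 4 (0.81, adjusted p = 0.00992). The cause was not tested. The log2 ratio of mt-Rnr2 to the 9 stayed within 1 SD of its value in the 12 alternatives run for each comparison, one of them the sum without mt-Co1 (-0.68, -0.30 and 0.38, against -0.94, -0.46 and 0.48). Without mt-Co1 each difference was thus smaller, and the daily group overlapped vehicle.

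Members called, 0 of 10 as reported, came to other counts as follows. In weekly against vehicle they were 3 with sample weights, 1 with DESeq2, 1 with scaling outside mitochondrial rows without weekly 4, 2 without weekly 4 and daily 3, and 1 with edgeR without weekly 4. In daily against vehicle they were 2 with sample weights, 1 each with edgeR, DESeq2, 2 groups only, and TMM without weekly 4, 3 with scaling outside mitochondrial rows without weekly 4, 3 without weekly 4 and daily 3, and 2 with edgeR without weekly 4. In daily against weekly they were 2 with sample weights, 4 with TMM without weekly 4, 5 with scaling outside mitochondrial rows without weekly 4, and 3 with edgeR without weekly 4. Leaving out 1 library at a time gave 0 to 1 in daily against vehicle and 0 in the others.

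Genes called, 1133 in weekly against vehicle, became 5690 with sample weights, 1904 with DESeq2, 2403 with TMM without weekly 4, 2142 with scaling outside mitochondrial rows without weekly 4, 3340 without weekly 4 and daily 3, 2643 with edgeR without weekly 4, 7 with the vehicle libraries averaged to 1 sample, and 645 to 2251 leaving out 1 library. The 547 of daily against vehicle became 1273 with TMM, 1084 with scaling outside mitochondrial rows, 3532 with sample weights, 1333 with edgeR, 1596 with DESeq2, 1665 with 2 groups only, 2995 with TMM without weekly 4, 2475 with scaling outside mitochondrial rows without weekly 4, 2422 without weekly 4 and daily 3, 2849 with edgeR without weekly 4, 3 with vehicle averaged, and 347 to 1478 leaving out 1 library. The 1227 of daily against weekly became 666 with TMM, 485 with scaling outside mitochondrial rows, 3449 with sample weights, 746 with edgeR, 228 with 2 groups only, 1881 with TMM without weekly 4, 2044 without weekly 4 and daily 3, 1881 with edgeR without weekly 4, 233 with vehicle averaged, and 521 to 1888 leaving out 1 library.

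With a replicate block, 1096, 494 and 985 genes and 0 members were called in the same order. Same-numbered libraries deviated together with correlations of -0.03 to 0.15, which cannot show whether they share more than a number. With TMM, 57.5% of calls in weekly against vehicle were higher, against 86.8% as deposited. The share of higher calls was 61.6% against 45.3% in daily against vehicle, and 44.1% against 5.54% in daily against weekly. Depth limits mt-Co2, mt-Co3 and mt-Atp6 most, above all in weekly 4.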
